A study of Mus musculus with 3 samples.

Results

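Arterial endothelial marker genes were examined in RNA bound to the tagged ribosomes of heart endothelial cells. The 9 genes, Gja4, Gja5, Bmx, Sema3g, Efnb2, Stmn2, Fbln5, Unc5b and Mecom, were chosen by name as arterial genes outside the Notch pathway, and each of the 9 symbols was found in the table of 17583 genes. All samples came from the hearts of EC-RiboTag mice, whose genotype is Cdh5-CreERT2;Rpl22tm1.1Psam and in which a tamoxifen-inducible Cre under the endothelial Cdh5 promoter adds a hemagglutinin tag to the ribosomal protein Rpl22. The 3 libraries, 1 per mouse and called mouse 1, 2 and 3, are replicates of a single group. Per the labels the hearts were taken 7 days after coronary ligation, whereas the study's RiboTag methods do not mention ligation. The titles carry the letters Rz, which no label explains. For another measurement, the study took endothelial RNA of such mice at the same time after infarction separately from the remote zone, which it abbreviates RZ, and from the border and infarct zones, so whether whole hearts or the remote zone were sequenced is not settled. Mice were on a C57BL/6 background and 8 to 20 weeks old, those that underwent ligation 10 to 12 weeks, about 2 weeks after tamoxifen. Mouse 1 stood apart in genes that differ by sex, with 1080 normalized counts of the Y-linked gene Ddx3y against 3 and 1 in mice 2 and 3, and 4 of Xist, the RNA of the inactive X chromosome, against 618 and 869. The sexes of the animals are not labelled, and sex and any other difference of mouse 1 cannot be told apart. Cdh5 is expressed by endothelial cells of every vessel type, so arterial, capillary, venous, endocardial and lymphatic cells can all contribute, and arterial cells were not separated. In such a mixture, fewer cells of a type and less RNA per cell cannot be told apart. With neither input nor control libraries at hand, values give the level in the immunoprecipitate and not an enrichment, and no difference between conditions was tested.

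Arteries, capillaries and veins are lined by endothelial cells with different gene programmes. During development the arterial programme is set up by VEGF and Notch signalling, together with transcription factors of the SOX and ETS families, and it includes surface ligands that keep arterial cells apart from venous cells, gap junction proteins that pass electrical and chemical signals along the vessel wall, and matrix proteins of the elastic layer. In the heart, arterial cells are a minority beside the dense capillary bed. Several of these genes are not restricted to arterial endothelium. Connexins of this set are also found in atrial muscle, the conduction system or mural cells, Fbln5 is made by smooth muscle and fibroblasts, Stmn2 is best known from neurons, and Bmx and Unc5b are also found in other endothelial cells.

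Values are normalized counts, that is, read numbers per gene that the authors scaled for the size of each library and rounded. They summed to between 7149102 and 7268785 per mouse, and 1 read was estimated to be worth between 0.961 and 1.06 normalized counts, which corresponds to between 6753000 and 7564000 reads. Because longer transcripts yield more reads, genes are compared only per kb, the normalized count divided by the length of the canonical transcript in kb. Duplicate reads had been removed, which leaves each position of a transcript about 1 read and compresses differences between abundant genes. The members had between 0.140 and 0.418 normalized counts per base of their canonical transcript. Some genes set beside them below had more, such as Eng with 809.4 and Ltbp4 with 841.5 per kb, so their ratios can be more compressed. Gpihbp1, with 1637 per kb, even exceeded 1 per base of its canonical transcript.

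The gap junction genes of the set were both present in each mouse, at levels per kb of canonical transcript that were within the spread between mice. Gja4 (ENSMUSG00000050234, chromosome 4, from 127205214 to 127207832 on the minus strand of GRCm39, the build of all gene positions given here) encodes a connexin typical of small arteries. Its normalized count was 498 in mouse 1, 519 in mouse 2 and 590 in mouse 3, a mean of 535.7 ± 48.2 (SD, n = 3) and 314.4 ± 28.3 per kb. Gja5 (ENSMUSG00000057123, plus strand of chromosome 3, from 96812009 to 96984732) encodes the connexin most often used as an arterial marker. It had 917, 870 and 848, a mean of 878.3 ± 35.3 (SD, n = 3) and 280.6 ± 11.3 per kb. Per kb, Gja4 exceeded Gja5 in mice 2 and 3 and lay just below it in mouse 1, at a mean log2 ratio of 0.16 ± 0.18 (SD, n = 3), a difference within the spread between mice (p = 0.50, exact sign-flip permutation test over mice, two-sided, as for all ratios here). By the joined length of all annotated exons, Gja4 exceeded Gja5 in each of the 3 mice, with a log2 ratio of 0.75 ± 0.18 (exact p = 0.25). The mice ranked in opposite order for the pair, with mouse 3 highest for Gja4 and lowest for Gja5. Exons of Gja4 overlap a gene on the other strand over 31.8% of their joined length, but the authors counted reads on the correct strand only.

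Of the 20 connexin genes searched, 8 were listed, and a gene that is not listed lies below the floor of the table, whose lowest listed maximum is 4. Gja1, the widely expressed connexin that also couples heart muscle cells, had 312.7 ± 13.6 per kb, between the members of the set. The log2 ratio per kb of Gja4 to Gja1 was 0.01 ± 0.19 (SD, n = 3; exact p = 1.00), while Gja5 lay below Gja1 in each of the 3 mice by -0.16 ± 0.05 (p = 0.25 in the same exact test). Division by joined exons turned the second ratio to 0.30 and gave 1.06 for the first. The next connexin, Gjc1, had 118.2 per kb. Genes of heart muscle were abundant in these libraries: all 10 genes of the cardiomyocyte list were present, with a median of 565.2 ± 18.9 per kb and a summed level of 20679, 21339 and 24237 in mice 1, 2 and 3. The part of muscle RNA in the connexin levels was not tested.

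The ligands and receptors of the set act in cell guidance and, per kb of canonical transcript, were the most abundant members with Stmn2. By joined exons Stmn2 had 136.4 per kb, below Gja4 (248.6), Gja5 (147.3) and Fbln5 (145.3). Efnb2 (ENSMUSG00000001300, minus strand of chromosome 8, from 8667434 to 8711242) encodes ephrin-B2, the membrane ligand whose pairing with its receptor EphB4 marks the border of arteries and veins. Its normalized count was 2268 in mouse 1, 1966 in mouse 2 and 2047 in mouse 3, a mean of 2094 ± 156 (SD, n = 3), and with 418.1 ± 31.2 per kb it was the first of the 9 genes. Sema3g (ENSMUSG00000021904, plus strand of chromosome 14, from 30939817 to 30952309), a secreted semaphorin, had 1836, 1598 and 1496, a mean of 1643 ± 175 (SD, n = 3) and 361.3 ± 38.4 per kb. Both genes were highest in mouse 1. Unc5b (ENSMUSG00000020099, minus strand of chromosome 10, from 60598372 to 60667360), a receptor for netrins and for the endothelial protein Robo4, had 2027, 1930 and 1990, a mean of 1982 ± 49.0 (SD, n = 3) and 335.7 ± 8.3 per kb. It varied least, with a coefficient of variation of 2.5% where counting alone gives about 2.24%.

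Some partners and relatives of these genes exceeded them, and others were far lower. Ephb4, the receptor that pairs with Efnb2 and a gene of the venous list, had 531.5 ± 6.7 per kb and exceeded Efnb2 in each of the 3 mice (log2 ratio of Efnb2 to Ephb4 -0.35 ± 0.11, SD, n = 3; exact p = 0.25, the smallest that 3 mice allow). Among the ephrin-B ligands, Efnb1 had 469.6 per kb and Efnb3 44.1, so that the ratio of Efnb2 was -0.17 ± 0.08 to the first and 3.25 ± 0.16 to the second on the log2 scale (exact p = 0.25 for both). For Sema3g, the gene of its list with the highest level was the co-receptor Nrp2 with 576.6 per kb, at a log2 ratio of Sema3g to Nrp2 of -0.68 ± 0.23 (exact p = 0.25). Of the 7 class 3 semaphorins, which all were listed, Sema3f was higher than Sema3g per kb of canonical transcript (log2 ratio of Sema3g to Sema3f -0.45 ± 0.27, exact p = 0.25), and the other 5 had at most 46.7 per kb. By joined exons the ratios of Sema3g turned to 0.15 with Nrp2 and 0.28 with Sema3f. Sema3g has a single annotated transcript, so both of its lengths are equal. Robo4 exceeded Unc5b in each of the 3 mice (log2 ratio of Unc5b to Robo4 -0.24 ± 0.05, exact p = 0.25). Of the Unc5 receptors Unc5b was the highest, with a log2 ratio to Unc5a of 2.53 ± 0.34 (exact p = 0.25), whereas Unc5c had 0.311 per kb and Unc5d was not listed. Its ligand gene Ntn1 had 193.8 per kb.

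The remaining members are a kinase, a cytoskeletal regulator, a matrix protein and a transcription factor. Stmn2 (ENSMUSG00000027500, plus strand of chromosome 3, from 8574420 to 8626666) encodes a microtubule-destabilizing stathmin. It had normalized counts of 877, 760 and 729, a mean of 788.7 ± 78.1 (SD, n = 3) and 368.7 ± 36.5 per kb. Markers of neurons and glia were near the floor in these libraries: 7 of the 12 in the list were present, at a summed level of 64, 78 and 108 in mice 1, 2 and 3, and Snap25, Nefm, Th and Elavl4 were among those not listed. The part of such cells in the level of Stmn2 was not tested. Stmn2 exceeded the highest other stathmin, Stmn1, in each mouse, with a log2 ratio per kb of 1.79 ± 0.23 (SD, n = 3; exact p = 0.25). Mecom (ENSMUSG00000027684, minus strand of chromosome 3, from 30005445 to 30602157), a zinc finger transcription factor needed for the arterial programme, had 1536, 1326 and 1455, a mean of 1439 ± 106 (SD, n = 3) and 283.5 ± 20.9 per kb. It exceeded the related gene Prdm16 by a log2 ratio of 1.25 ± 0.16 and the corepressor gene Ctbp1 by 0.18 ± 0.13 (exact p = 0.25 for both). These ratios depend on the length taken, since Mecom has 32 annotated transcripts and joined exons of 12507 bases against a canonical transcript of 5075. By joined exons they were 0.06 and -0.70.

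Per kb of canonical transcript, Fbln5 and Bmx were the lowest members, while by joined exons they had 145.3 and 136.1 and Mecom was the lowest. Fbln5 (ENSMUSG00000021186, minus strand of chromosome 12, from 101712824 to 101785314) encodes fibulin-5, which organizes elastic fibres. It had normalized counts of 1046, 1109 and 1024, a mean of 1060 ± 44.1 (SD, n = 3) and 170.6 ± 7.1 per kb. In its list of 12 elastic fibre genes, Ltbp4, a binding partner of fibulin-5, was the highest with 841.5 per kb, at a log2 ratio of Fbln5 to Ltbp4 of -2.30 ± 0.04 (SD, n = 3; exact p = 0.25). Fbln2 also exceeded Fbln5, which had a log2 ratio of -0.99 ± 0.09 to it (exact p = 0.25). Genes of other matrix-producing cells were present beside Fbln5. All 7 genes of the fibroblast list were found, at a summed level of 2659, 3172 and 3531 in mice 1, 2 and 3, and all 10 of the mural list, at 1756, 2222 and 2512. Fbln5 was highest in mouse 2 and lowest in mouse 3, but its coefficient of variation was only 4.2%, where counting alone gives about 3.07%. Of the mural genes, the highest was Rgs5 with 542, 615 and 505. It had the same order of mice as Fbln5, but no other gene of the mural or fibroblast list did. Mouse 1 was lowest for 7 of the 10 mural genes. The smooth muscle gene Myh11 had 31, 118 and 240, and the lowest mural gene was Cnn1 with 1, 4 and 12. The part of these cells in the level of Fbln5 was not tested.

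Bmx (ENSMUSG00000031377, minus strand of chromosome X, from 162975838 to 163041189) encodes a Tec family kinase of arterial endothelium and endocardium. It had normalized counts of 408, 330 and 527, a mean of 421.7 ± 99.2 (SD, n = 3) and 140.0 ± 33.0 per kb. It was the most variable member, with a coefficient of variation of 23.5%, where counting alone gives about 4.85%. Of the other Tec kinases, Tec had 96.9 per kb and lay below Bmx in each mouse (log2 ratio of Bmx to Tec 0.50 ± 0.30, SD, n = 3; exact p = 0.25), while Btk, a kinase of leukocytes, had 4.85 and Txk was not listed. Mouse 1, which had almost no Xist, had the middle value of this X-linked gene.

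**Figure D1:**
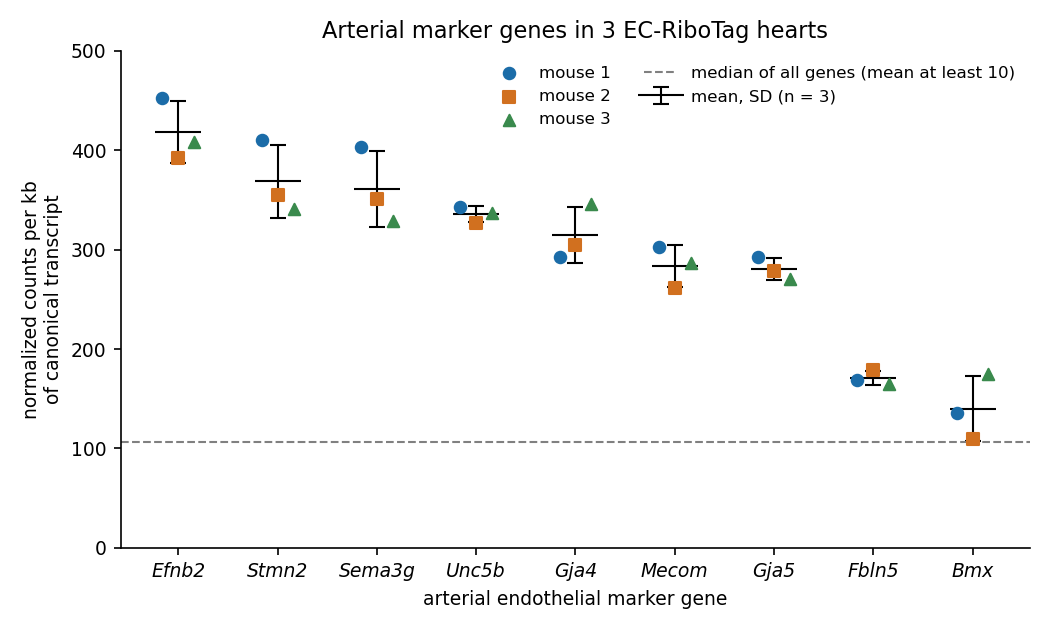
Normalized counts per kb of canonical transcript (y axis) for the 9 arterial marker genes (x axis), with a symbol for each mouse, the mean and the SD over 3 mice, and the median of all genes as a dashed line. The means run from 418.1 for Efnb2 to 140.0 for Bmx. The 3 mice of Unc5b lie close together, and those of Bmx are spread widest relative to their mean.

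Ordered per kb, the members ran from Efnb2 through Stmn2, Sema3g, Unc5b, Gja4, Mecom, Gja5 and Fbln5 to Bmx, a 2.99-fold range. Most neighbours could not be told apart. Of 8 pairs of neighbours, 3 were further apart than the larger of both SDs, namely Efnb2 from Stmn2, Gja4 from Mecom and Gja5 from Fbln5. Per kb of canonical transcript the gap between Gja5 and Fbln5 was the widest, with a log2 ratio of 0.72 ± 0.08 (SD, n = 3; exact p = 0.25, adjusted p = 0.571 over the 8 pairs). Stmn2 and Sema3g kept their order in each mouse at a log2 ratio of 0.03 ± 0.02. The remaining 5 pairs, Gja4 and Mecom among them, changed order in at least 1 mouse. Since 0.25 is the smallest p this design allows, no pair could pass 0.05. By joined exons the order was different: Sema3g came first with 361.3 per kb, followed by Unc5b with 315.0 and Efnb2 with 289.1, and Stmn2 had 136.4 and Mecom 115.1. The gap between Gja5 and Fbln5 was then 0.02 ± 0.08 on the log2 scale, with the order changed in 1 mouse (exact p = 0.75), while Efnb2 exceeded Stmn2 by 1.08 ± 0.07 and Gja4 exceeded Mecom by 1.11 ± 0.17 in each of the 3 mice (exact p = 0.25).

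**Figure D2:**
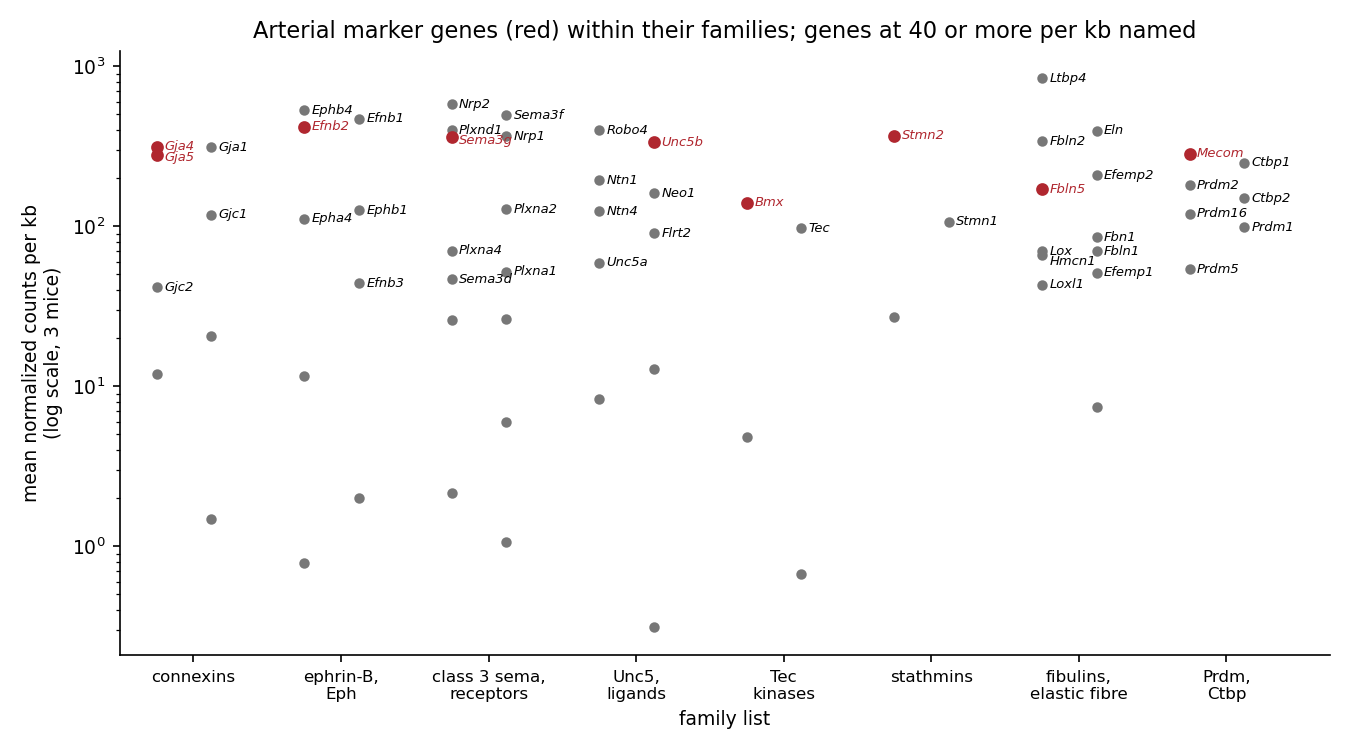
Mean normalized counts per kb of canonical transcript over 3 mice (y axis, log scale) for the listed genes of 8 families or partner lists (x axis), with the arterial marker genes in red. Gja4 at 314.4 and Gja1 at 312.7 lie side by side, and Stmn2 at 368.7 stands above Stmn1 at 106.3.

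All 9 members exceeded the median of all genes per kb, which was 106.5 over the 14395 genes of known length whose mean reached 10. By canonical length, their place among these genes ran from the 58.6th percentile for Bmx to the 93.0th for Efnb2. By joined exons all 9 were again above the median, but places changed. Among all genes of known length, Bmx ranked 5959 by canonical length and 2856 by joined exons, and Mecom ranked 2459 and 3646. The median of the 9 members was 312.0 ± 14.6 per kb (SD over mice, n = 3). The 10 further arterial genes of a second list, all present, had a median of 378.4 ± 29.2, from Vegfc with 247.3 to Depp1 with 785.4. The 8 Notch pathway genes of arteries had 320.6 ± 19.1, with Hes1 the highest and Hey2, at 47.3, the lowest.

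Per kb of canonical transcript, genes of capillaries stood above the arterial genes. The 12 capillary genes had a median of 725.4 ± 47.7 per kb, led by Gpihbp1, which carries lipoprotein lipase to the capillary surface, and the lowest of them, Btnl9 with 433.9 ± 63.8, was within its SD of Efnb2, the highest arterial gene, with 418.1 ± 31.2. The 12 genes shared by endothelial cells of all vessels had 690.1 ± 13.4, between Robo4 with 397.3 and Eng with 809.4. The arterial median was below both, with log2 ratios of -1.22 ± 0.16 to the capillary and -1.15 ± 0.09 to the shared list (SD, n = 3). The 8 venous genes had 243.6 ± 35.2 and fell into separate levels. Nrp2, Ephb4, Vcam1, Vwf and Nr2f2 had between 227.6 and 576.6 per kb, within or above the range of the arterial genes, whereas Ackr1, Selp and Tmem252 had between 29.0 and 60.4. Every arterial member was above these last 3 genes. By joined exons the arterial median was again below the capillary median, at a log2 ratio of -1.26 ± 0.18, but single genes overlapped. Sema3g (361.3), Unc5b (315.0), Efnb2 (289.1) and Gja4 (248.6) then exceeded the capillary genes Fabp4 (196.0), Cd36 (213.6), Car4 (224.2) and Aqp7 (245.9).

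**Figure D3:**
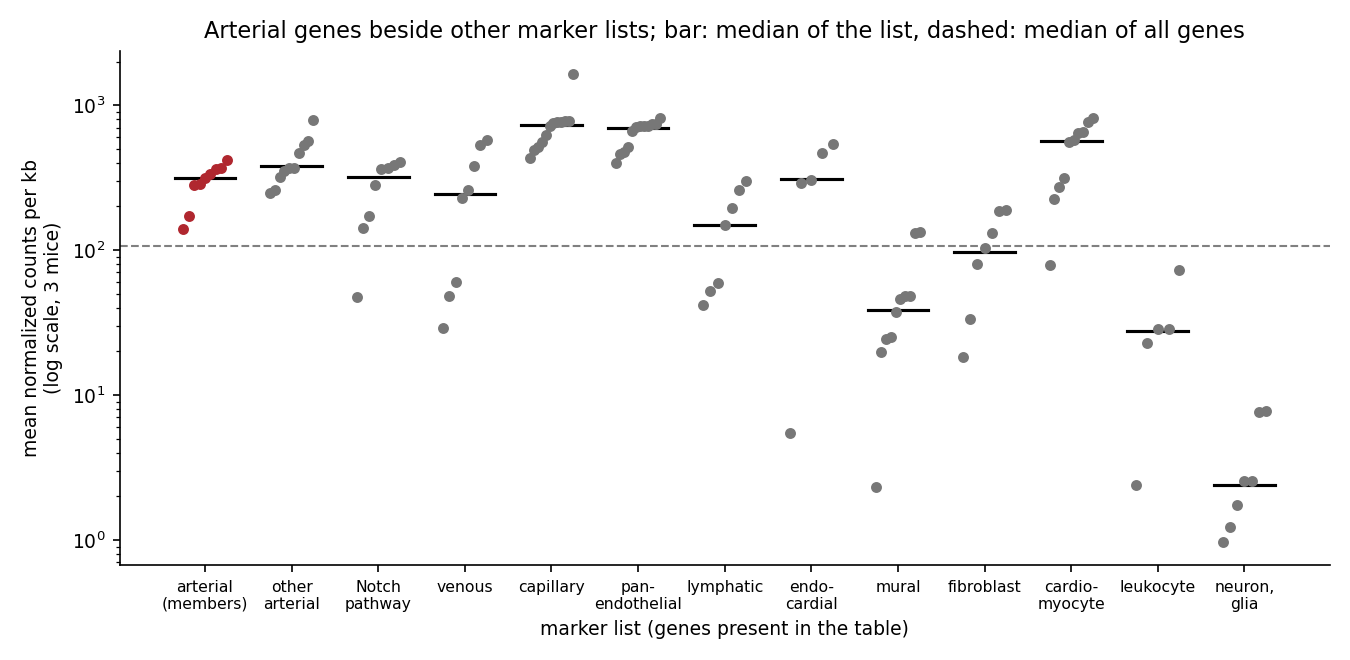
Mean normalized counts per kb of canonical transcript (y axis, log scale, 3 mice) for the genes of 13 marker lists (x axis), with a bar at the median of each list and a dashed line at the median of all genes. The 9 arterial genes in red lie between 140.0 and 418.1, below the capillary genes, of which the lowest is at 433.9, and above most mural, leukocyte and neuronal genes.

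Between mice the members differed little, apart from Bmx. Of the 9 members 1, Bmx, had a coefficient of variation over 20%, as did 8.0% of the 9358 genes whose mean reached 200. The other 8 members lay between 2.5% for Unc5b and 10.6% for Sema3g. Several members shared the same direction. Mouse 1 had the highest value for 6 of the 9 members, Gja5, Sema3g, Efnb2, Stmn2, Unc5b and Mecom, against 37.6% of the same 9358 genes. It had the lowest value for 1 member, Gja4, against 31.8% of those genes. The differences were small. The log2 ratio of mouse 1 to the mean of the others was 0.25 for Sema3g, 0.24 for Stmn2, 0.18 for Efnb2 and 0.14 for Mecom, and 0.09 or less for the others. Gja4 went the other way with -0.15.

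The further arterial genes leaned to mouse 1 as well, which was highest for 7 of the 10, with log2 ratios to the mean of the others of 0.50 for Alpl, 0.42 for Cxcr4, 0.37 for Gkn3 and 0.32 for Vegfc. Mouse 1 was also highest for 11 of the 12 capillary genes, but for only 5 of the 12 shared endothelial genes, against 37.6% of the 9358 genes. Of the 8 Notch pathway genes it was highest for 4 and lowest for 2. Of the 10 cardiomyocyte genes it was highest for 6 and lowest for the other 4. In contrast, 7 of 7 lymphatic genes were lowest in mouse 1, against 31.8% of the genes whose mean reached 200. So were 5 of the 8 venous genes, 3 of them with a mean under 200. Of the 5 venous genes whose mean reached 200, only 2 were lowest in mouse 1. Mouse 1 was also lowest for 7 of the 10 mural, 5 of the 7 fibroblast and 4 of the 5 listed leukocyte genes, some with a mean under 200. Among those whose mean reached 200, it was lowest for 3 of 5 mural, 4 of 6 fibroblast and 1 of 1 leukocyte genes. Ackr1, a marker of small veins, had 24, 116 and 69 in mice 1, 2 and 3, and Selp had 74, 210 and 214. The cellular make-up of the 3 samples was not measured, and its part in these values was not tested.

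**Figure D4:**
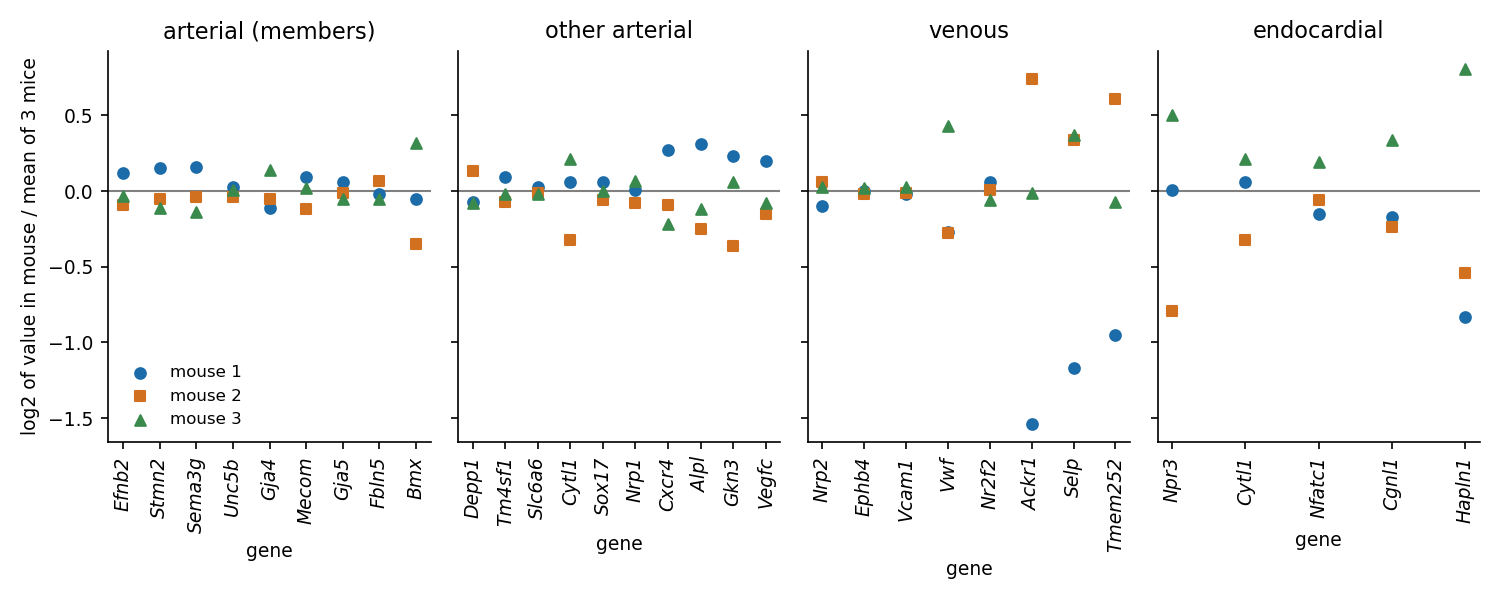
Log2 ratio of the value in each mouse to the mean of the 3 mice (y axis) for the arterial members, the further arterial genes, the venous and the endocardial genes (x axis), with a symbol for each mouse. Sema3g, Stmn2 and Efnb2 are highest in mouse 1, Ackr1, Selp and Tmem252 are lowest there, and Bmx and Npr3 are lowest in mouse 2 and highest in mouse 3.

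The profile of Bmx over the mice was unlike that of the other members, with mouse 3 highest and mouse 2 lowest. Npr3, a natriuretic peptide receptor used as a marker of endocardium, had the same order with 1589, 914 and 2228, and so had Cytl1, which is also in the further arterial list, with 555, 424 and 614. The other 3 endocardial genes did not all follow it: Cgnl1 did with 1754, 1663 and 2486, whereas Nfatc1, with 1305, 1386 and 1658, was lowest in mouse 1. The order was not particular to endocardial genes. The fibroblast genes Lum (458, 309 and 618) and Dcn (813, 579 and 1007) had it too. Of the rest of the fibroblast list, Postn, Col1a1 and Col1a2 were highest in mouse 2, and Pdgfra and Tcf21 were lowest in mouse 1. In the Notch and further arterial lists, Notch1 (1517, 1389 and 1967), Notch4 (2568, 2369 and 2734) and Nrp1 (1887, 1779 and 1965) had the order besides Cytl1. The remaining genes of these lists had other orders. Of the venous genes, Vwf (1898, 1886 and 3098) and Ephb4 (2311, 2289 and 2347) had the order of Bmx. Of the mural genes, Abcc9 (383, 301 and 396) had it. The share of all genes with this order was not counted, so it is not a trait of any list. The summed level of the 5 endocardial genes, all present, was 5221, 4409 and 7042, and Hapln1, with 18, 22 and 56, was the lowest of them and lowest in mouse 1. The part of endocardial cells, fibroblasts or any other cells in the level of Bmx was not tested. By the distance of centred log2 values over the 3 mice, the genes nearest to Bmx among 9358 were Cadps2 (237, 190 and 305), Cd24a (303, 240 and 391) and Gata6 (510, 400 and 645), at root mean square distances of 0.0052, 0.0139 and 0.0185. Among the nearest to Sema3g were Sigirr and Lrrc2, with distances of 0.0026 and 0.0031, and nearest to Stmn2 were Slx1b, Adprhl1 and Irak4, with at most 0.0024. With only 3 points a close profile is shared by many genes, so these names are a description.

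The 250 bases before the annotated start were read for the members. RefSeq (GRCm38.p6, an older build than that of the counts) gave 10 such windows for 8 members, and no entry for Stmn2. A GC box, the Sp and KLF factor motif GGGCGG on either strand, was found in 7 of the 10 member windows and in 32.7% of the 32851 windows of all genes. Those windows were not matched to the members in GC content or expression. It lay before each of the members with an entry except Bmx, while Fbln5 and Mecom each had a second window without it. The letters AGGAAG, a core bound by ETS factors, were found in 3 member windows (Gja5, Sema3g and Fbln5; 29.5% of all windows), ACAAT, a core bound by SOX factors, for 2 (Gja4 and Bmx; 27.7%), and TATAAA, the TATA box, for Efnb2 alone and there on the opposite strand (12.4%). Both strands were searched for each, and no match in the members overlapped another. Windows of 5 members are printed, and they include the connexin pair. Per kb of canonical transcript, they span the set from the most abundant gene, Efnb2, to the least abundant, Bmx, which was also the most variable. They are, 5′ to 3′ on the strand of the gene, chr4:127314040-127314289 for Gja4, chr3:97032152-97032401 for Gja5, chr8:8661243-8661492 for Efnb2, chr14:31217623-31217872 for Sema3g and chrX:164258194-164258443 for Bmx, with matches to the 4 motifs in capitals.
Gja4: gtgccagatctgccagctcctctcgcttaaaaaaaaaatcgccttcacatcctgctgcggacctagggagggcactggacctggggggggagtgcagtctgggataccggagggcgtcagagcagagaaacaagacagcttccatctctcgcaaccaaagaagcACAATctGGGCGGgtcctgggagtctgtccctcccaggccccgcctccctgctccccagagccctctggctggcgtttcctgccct
Gja5: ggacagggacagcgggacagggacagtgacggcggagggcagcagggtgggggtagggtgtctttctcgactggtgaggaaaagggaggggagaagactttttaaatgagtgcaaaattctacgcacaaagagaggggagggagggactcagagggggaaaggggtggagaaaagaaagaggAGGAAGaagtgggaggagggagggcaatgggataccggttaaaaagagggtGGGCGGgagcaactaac
Efnb2: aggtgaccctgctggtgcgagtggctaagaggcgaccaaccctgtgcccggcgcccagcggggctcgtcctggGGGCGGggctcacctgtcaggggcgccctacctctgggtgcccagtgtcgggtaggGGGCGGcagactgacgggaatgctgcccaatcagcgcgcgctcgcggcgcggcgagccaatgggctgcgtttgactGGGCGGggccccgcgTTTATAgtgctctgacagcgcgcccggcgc
Sema3g: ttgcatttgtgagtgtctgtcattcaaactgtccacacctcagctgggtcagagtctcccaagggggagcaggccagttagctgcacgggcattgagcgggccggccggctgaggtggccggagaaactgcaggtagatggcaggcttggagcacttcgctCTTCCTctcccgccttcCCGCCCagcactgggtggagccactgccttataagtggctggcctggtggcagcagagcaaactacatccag
Bmx: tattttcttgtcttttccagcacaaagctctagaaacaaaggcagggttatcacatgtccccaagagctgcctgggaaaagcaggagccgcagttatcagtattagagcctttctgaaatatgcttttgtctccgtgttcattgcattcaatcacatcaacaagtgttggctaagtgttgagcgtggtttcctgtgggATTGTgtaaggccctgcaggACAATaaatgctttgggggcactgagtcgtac
The window of Efnb2 holds 3 GC boxes and a TATA box, and 72.0% of its bases are G or C, against 45.6% in that of Bmx and a median of 52.4% over all windows. That of Bmx holds 2 SOX cores and no GC box. The windows of Gja4 and Sema3g each hold 1 GC box, from -79 to -74 and from -72 to -67 relative to the start. A match of letters is a description, and the binding of a factor was not measured here.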

How the data were processed

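Ribosome-associated RNA of 3 EC-RiboTag hearts was read from 1 end over 72 bases. The authors trimmed reads with Trimmomatic 0.39, aligned them with STAR 2.7.11a to mm39, removed duplicates (Picard 3.1.1) and multi-mapping, ribosomal and mitochondrial reads, counted reads over exons on the correct strand with featureCounts 2.0.4 and normalized with DESeq2 1.36.0. The deposited values are a score, namely read numbers scaled by DESeq2 size factors and rounded, so no count model was fitted. Depth was estimated from the whole numbers that this rounding leaves empty or doubles.

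Columns were matched to mice by title. The labels call the libraries biological replicates. With these 3 mice the sign-flip p is 0.25 whenever all agree in direction, whatever the spread, so it mainly reflects that agreement. The order of neighbours and the highest gene of a family list were taken from the same values. Canonical and joined exon lengths came from GENCODE vM39 (GRCm39), which held 17475 of the 17583 identifiers (99.39%). Log2 ratios within a mouse used a pseudocount of 0.5 and the exact sign-flip test, two-sided, for 8 neighbouring pairs, 9 pairs with the highest gene of the family list (adjusted p at least 0.281) and 9 other family pairs (adjusted p at least 0.281), the last chosen after values had been seen. No stretch of 72 bases of a member's canonical transcript had an exact copy elsewhere in the genome (BLAST 2.17.0). On simulated tables the rule on the coefficient of variation found 100.0% of 200 changed genes, with 2 unchanged genes called among 9343 tested, changed ones included. Unchanged genes were simulated with a small fixed spread between mice, whereas 749 of 9358 real genes passed the limit. The 2 calls therefore do not measure false calls in the real data. The changed genes differed 2-fold in a single mouse, far beyond the limit, so the simulation does not test spreads near the limit, such as that of Bmx. Trimmed mean scaling left out 30% of log ratios and 5% of levels at each end. Python 3.11.15, numpy 2.4.6 and pandas 2.3.3 were used.

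The members and lists were chosen with earlier results of these data known, and the promoter motifs, the comparison of mouse 1 and the genes shown beside Bmx after seeing the values. Genes named are the members, their family lists, the highest and lowest gene of a list and the 3 nearest profiles of the 3 most variable members; further genes of lists were named after their values were seen. A few genes that this rule names are not reported here.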

Additional observations from a re-analysis of the deposited data

How the results depend on the processing

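Scaling by trimmed means or to equal totals, and a pseudocount of 5, changed no mean direction and no count of members. With that pseudocount Gja4 was above Gja5 in every mouse, at a ratio of 0.17, since in mouse 1 the pair was nearly level. With a mouse left out, the median of the members lay between 1035 and 1078 normalized counts and between 298.4 and 325.4 per kb. Between 4 and 6 neighbouring pairs then kept 1 order in both mice left, against 3 in all 3. The ratio of Mecom to Gja5 lay between -0.02, without mouse 3, and 0.06, and was 0.00 without mouse 1, that of Gja4 to Gja1 between -0.10 (without mouse 3) and 0.07, and that of the arterial to the Notch list between -0.11, without mouse 3, and 0.03, without mouse 1. Bmx passed the limit of 20% on the coefficient of variation without mouse 1, while without mouse 2 or mouse 3 no member did, so the count lay between 0 and 1. Over all genes it was 455 without mouse 1, 921 without mouse 2 and 812 without mouse 3, and 3492 with a minimum mean of 10, against 749.

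Length decided more. By joined exons the median of the members was 147.3 per kb. The log2 ratio was -1.40 for Stmn2 to Sema3g, -0.36 for Mecom to Gja5, 0.30 for Gja5 to Gja1, 0.15 for Sema3g to Nrp2, 0.28 for Sema3g to Sema3f, -0.70 for Mecom to Ctbp1 and 0.77 for Fbln5 to Efemp2, all reversed. The arterial list then had -0.69 to the further arterial list, -0.37 to the Notch list, -1.28 to the shared endothelial list and 2.56 to the mural list. With no division by length, the ratio was -1.06 for Stmn2 to Sema3g, -0.28 for Sema3g to Unc5b, -1.43 for Gja4 to Mecom, -0.27 for Gja5 to Fbln5, -1.46 for Gja4 to Gja1, -0.72 for Gja4 to Gja5, 0.02 for Unc5b to Robo4, -0.16 for Mecom to Ctbp1, 0.43 for Efnb2 to Efnb1 and 1.20 for Fbln5 to Efemp2, again reversed. The list ratios were 0.21 to the further arterial list, -0.24 to the Notch list, -0.11 to the venous list, -0.42 to the capillary list, -1.02 to the shared list and 2.49 to the mural list. The transcripts present were not identified, so neither length was tested against them. No paired analysis was possible because the 3 samples form a single group, and there is no second group to pair them with. Ratios between genes were taken within each mouse.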
